A study of Arabidopsis thaliana with 3 samples.

Results

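Pathogenesis-related (PR) proteins are secreted or vacuolar proteins that plants accumulate after infection, and their genes serve as readouts of the defence hormones. The 7 genes described here were taken by locus code: PR1 (AT2G14610), PRB1 (AT2G14580), PR2 (AT3G57260), BGL3 (AT3G57240), PR3 (AT3G12500), PR4 (AT3G04720) and PR5 (AT1G75040), out of 24650 genes measured. All 7 were on the array, with 12 probes in all. Locus codes start with the chromosome, so PR5 lies on chromosome 1, PR1 and PRB1 on chromosome 2, and PR2, BGL3, PR3 and PR4 on chromosome 3.

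In Arabidopsis, salicylic acid acts through the coactivator NPR1 and TGA transcription factors to induce PR1, PR2 and PR5. Jasmonate and ethylene together act through ERF transcription factors such as ORA59 to induce PR3 and PR4, and PRB1 has been described as responsive to ethylene and methyl jasmonate. The salicylic acid branch and the jasmonate branch often repress each other in leaves.

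The study hybridised rosette RNA of Col-0, the wild-type accession that served as control, and of the double mutant lsm1a lsm1b to the same two-colour array, with 1 array for each of 3 biological replicates. LSM1A and LSM1B encode the LSM1 subunit of a cytoplasmic ring that promotes decapping and decay of messenger RNA. Cy3 marked the mutant on arrays 1 and 3, and Cy5 marked it on array 2. The labels contradict each other on the plants of both genotypes: characteristics and growth protocol describe rosettes aged 2 weeks, grown at 22 °C in 16 h light and 8 h dark, while the descriptions speak of an age of 3 weeks with 1 day at 4 °C. The temperature at harvest is therefore unknown, and the labels do not say which alleles the double mutant carries.

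Values are log2 ratios, read here with the mutant as numerator. That reading is probable but unproven: channel 1 is labelled as mutant in all samples and Col-0 as control, although the sample titles put Col-0 first. Array 2 correlated above 0 with the others over genes (r = 0.427 with array 1 and 0.452 with array 3), so the swapped array had already been turned. Under the opposite reading each direction below would invert, with sizes and p-values as given. Arrays 1 and 3, of the same dye orientation, correlated at 0.745. The median SD of a gene between arrays was 0.185, and the medians of the 3 arrays over genes lay between 0 and 0.01. In whole rosettes, a change in the RNA of each cell and a change in the number of cells that hold it cannot be told apart. Ratios hold no expression levels, so the labelled tissue could not be checked against leaf markers and no gene's level is compared with another's.

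PR1 had the highest ratios of the 7 genes. PR1 encodes a small secreted protein of the CAP family and is the standard marker of systemic acquired resistance. Its 1 probe stood at 1.75 on array 1, 5.71 on array 2 and 2.11 on array 3, which is 3.36-fold, 52.4-fold and 4.32-fold higher in the mutant. All 3 arrays were well above 0, and array 2 was far above the others: on that array PR1 had the highest ratio of all 24650 genes, followed by AT4G03050 at 5.41. On array 1 it ranked 93 and on array 3 it ranked 35. The mean was 3.19 ± 2.19 (SD, n = 3 arrays), or 9.13-fold, rank 10 of all genes by mean and rank 6 by SD. With this spread PR1 did not pass the threshold of 0.05 (limma adjusted p = 0.146 over all genes), and the unadjusted 95% interval of the fold ran from 1.91 to 43.6. On arrays 1 and 3 alone the mean was 1.93, which did not pass either (limma adjusted p = 0.0735).

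None of the 7 genes passed this threshold in limma, where 1.21% of all genes did, 0.625% higher and 0.584% lower. At an unadjusted p under 0.05, PR1, PRB1 and PR5 were on the higher side, as were 10.6% of all genes. The same 3 were above 0 on all 3 arrays, as were 19.7% of all genes, and 0 of the 7 were below 0 on all 3 arrays (18.0% of all genes). The median of the 7 means was -0.02, and that of all genes was 0.01.

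**Figure D1:**
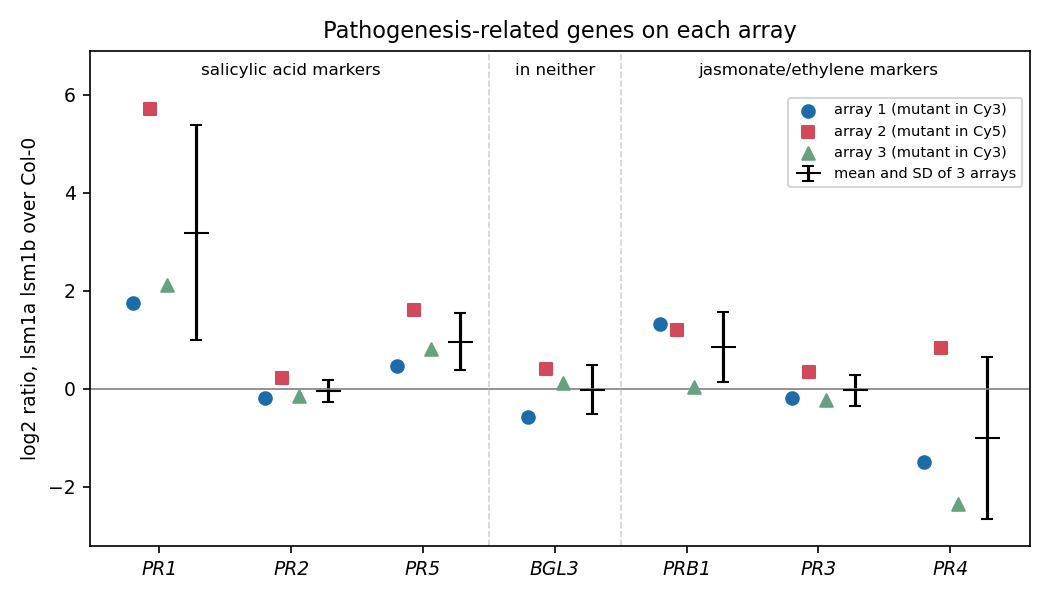
Log2 ratios (lsm1a lsm1b over Col-0, vertical axis) of the 7 genes on each of the 3 arrays, with the mean and SD beside them. PR1, PR5 and PRB1 lie above 0 on every array, PR2, BGL3 and PR3 lie around 0, and PR4 is below 0 on arrays 1 and 3 and above 0 on array 2.

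PR5 came next among the salicylic acid markers. It encodes a thaumatin-like protein, a family with antifungal members. Averaged over its 3 probes it stood at 0.47, 1.60 and 0.82 on arrays 1, 2 and 3, in the same order of arrays as PR1. Its mean was 0.96 ± 0.58 (SD, n = 3 arrays), or 1.95-fold, with an interval from 1.26 to 3.02, and did not pass (limma adjusted p = 0.129). The average hides a split between probes. One probe annotated with the RefSeq transcript stood at 0.58, 2.58 and 1.20, and the other such probe at 0.71, 2.34 and 1.39. The third probe, tied to PR5 by symbol and annotated with another sequence record, stood at 0.11, -0.12 and -0.12. Both RefSeq probes were thus above 0 on every array and close to each other, and the third was near 0 on every array. With the RefSeq probes alone the mean of PR5 was 1.47 (limma adjusted p = 0.129). The part of the locus that each probe covers was not known.

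PR2, the third classical salicylic acid marker, did not share the high ratios of PR1 and PR5. It encodes a beta-glucanase that cleaves the callose and glucan polymers of plant and fungal walls. Its 1 probe stood at -0.18, 0.22 and -0.15, so the arrays lay on both sides of 0. Its mean was -0.04 ± 0.22 (SD, n = 3 arrays; limma adjusted p = 0.940), and the interval of the ratio ran from 0.785 to 1.21. PR2 was below PRB1 on all 3 arrays and above PR3 on 2 of them, whereas PR1 was above PRB1, PR3 and PR4 on every array. PR5 was above PR3 and PR4 on every array and above PRB1 on 2.

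BGL3 encodes another beta-glucanase, and 2 genes lie between it and PR2 in the TAIR10.1 gene order. Averaged over its 2 probes it stood at -0.57, 0.40 and 0.11, a mean of -0.02 ± 0.50 (SD, n = 3 arrays; limma adjusted p = 0.987). Its probes stood at -0.45, 0.58 and 0.22, and at -0.69, 0.22 and 0, so both gave the arrays in the same order. BG1, the direct neighbour of PR2 on its other side and also a beta-glucanase gene, stood at -0.14, 0.15 and -0.14. The glucanase genes of this cluster were therefore near 0 on average, and array 2 was the highest for each of the 3 (42.1% of all genes).

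**Figure D2:**
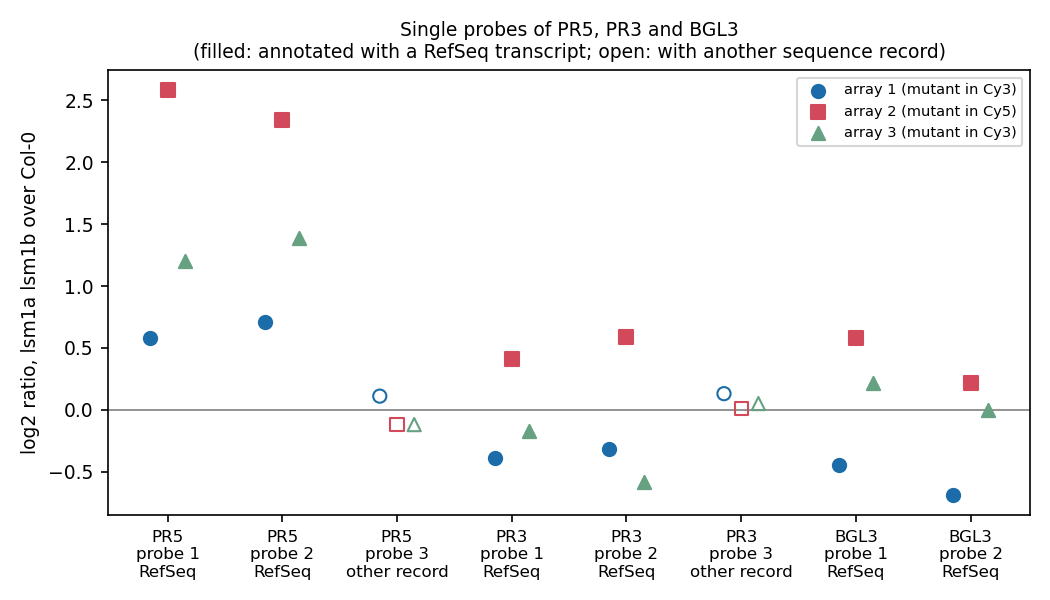
Log2 ratios (lsm1a lsm1b over Col-0, vertical axis) of each probe of PR5, PR3 and BGL3 on the 3 arrays. Filled points are probes annotated with a RefSeq transcript and open points are probes annotated with another sequence record, which lie within 0.13 of 0 for both PR5 and PR3.

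The jasmonate and ethylene markers did not share a direction. PRB1 encodes a basic relative of PR1, and 4 genes lie between them on chromosome 2. Its 1 probe stood at 1.32, 1.21 and 0.03, so arrays 1 and 2 were alike and array 3 was at 0. Its mean of 0.85 ± 0.72 (SD, n = 3 arrays), or 1.81-fold, did not pass (limma adjusted p = 0.211), with an interval from 1.06 to 3.07. PRB1 was the 1 gene of the 7 that was not highest on array 2.

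PR4 gave the widest spread after PR1. It encodes a hevein-like, chitin-binding protein. Its 1 probe stood at -1.49, 0.84 and -2.35, so arrays 1 and 3 had it 2.81-fold and 5.10-fold lower in the mutant and array 2 had it 1.79-fold higher. Its mean was -1 ± 1.65 (SD, n = 3 arrays; limma adjusted p = 0.499), with an interval of the ratio from 0.153 to 1.63, and its SD ranked 19 of all genes. On array 3 it was the gene with the rank of 22 counted from the lowest. Without array 2 its mean was -1.92 (limma adjusted p = 0.0760), without array 3 it was -0.33 (limma adjusted p = 0.996), and with a dye term it was -0.54 (limma adjusted p = 0.268).

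PR3 encodes a basic chitinase. Averaged over its 3 probes it stood at -0.19, 0.34 and -0.23, the same order of signs as PR4 at a smaller size. Its mean was -0.03 ± 0.32 (SD, n = 3 arrays; limma adjusted p = 0.968). Its RefSeq probes stood at -0.39, 0.41 and -0.17, and at -0.32, 0.59 and -0.58, and the probe tied to it by symbol at 0.13, 0.01 and 0.05. As for PR5, the probe annotated with another sequence record was near 0 throughout.

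The mean of the salicylic acid markers PR1, PR2 and PR5 was set against the mean of the jasmonate and ethylene markers PRB1, PR3 and PR4 on each array, as a description with no test. The salicylic acid mean stood at 0.68, 2.51 and 0.93, and the jasmonate and ethylene mean at -0.12, 0.80 and -0.85. The difference was 0.80, 1.71 and 1.78 on arrays 1, 2 and 3, a mean of 1.43 ± 0.55 (SD, n = 3 arrays). Both group means were highest on array 2. PR1 carried most of the difference: without it the values were 0.26, 0.11 and 1.19, a mean of 0.52, with the largest on array 3, where PR4 stood at -2.35. BGL3 was put in neither group, and with it among the salicylic acid markers the mean difference was 1.08.

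PR1 and PR4 were far higher on array 2 than on arrays 1 and 3, and the other 5 genes were less so. Array 2 gave the highest of the 3 ratios for 6 of the 7 genes, against 42.1% of all genes. PR1 lay 3.78 above the mean of the other arrays, the largest such difference of all 24650 genes, and PR4 lay 2.76 above it, the third largest. The difference was 0.96 for PR5, 0.63 for BGL3, 0.55 for PR3, 0.54 for PRB1 and 0.39 for PR2. More than 1 above the mean of arrays 1 and 3 were 2 of the 7 genes and 1.88% of all genes. A limma fit with a dye term sets the lone array 2 against the other arrays, takes its spread from arrays 1 and 3 and assumes that array 2 varies alike. In it none of the 7 passed for this difference (adjusted p = 0.214 for both PR1 and PR4), nor did any gene (0% of all genes). At an unadjusted p under 0.05 were PR1, PR3, PR4 and PR5 and 19.2% of all genes. PR2, PR3 and PR4 were below 0 on arrays 1 and 3 and above 0 on array 2, a pattern of 16.5% of all genes. Array 2 is at once the swapped dye orientation and biological replicate 2, and these cannot be told apart.

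**Figure D3:**
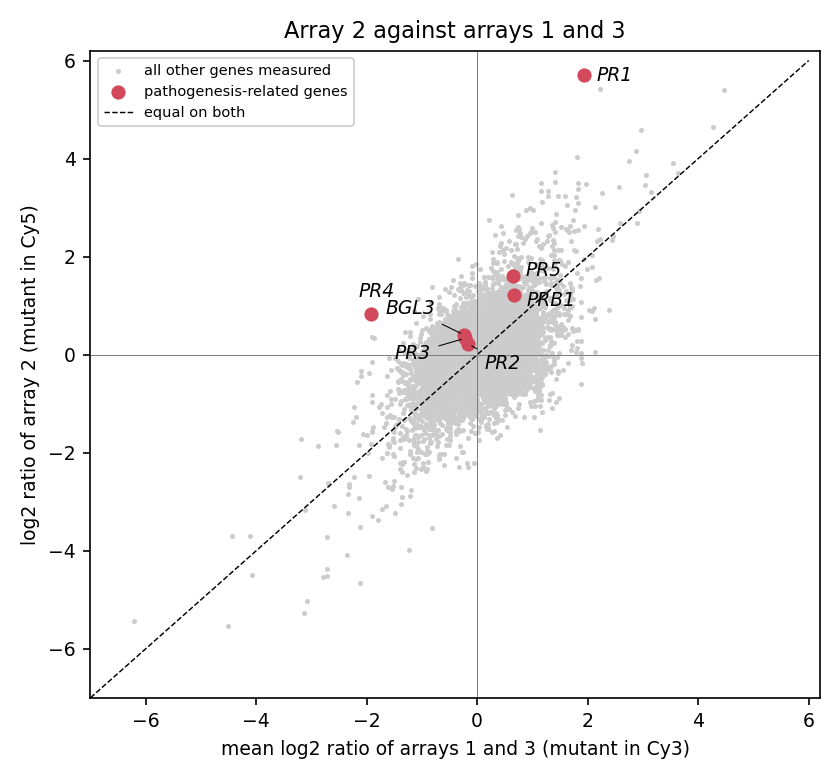
Log2 ratio on array 2 (vertical axis) against the mean of arrays 1 and 3 (horizontal axis) for all 24650 genes, with the 7 pathogenesis-related genes in red and a dashed line where both are equal. All 7 lie above the line, PR1 by 3.78 and PR4 by 2.76.

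The genes whose ratios over the 3 arrays were nearest to those of PR1, by Euclidean distance over the 3 arrays, were PNP-A, PCR1, AT4G14390, AT5G44570 and AT3G13950, at distances of 1.75, 1.96, 2.09, 2.11 and 2.12. PNP-A, a natriuretic peptide gene, stood at 1.28, 4.04 and 2.33. PCR1, a cadmium resistance gene, stood at 2.30, 4.58 and 3.62. Each of the 5 was highest on array 2, which the choice by closeness to PR1 fixed in advance. With 3 arrays this likeness is a description only. AT4G14390 and AT5G44570 passed the threshold (limma adjusted p = 0.0412 for both), with means of 3.31 ± 0.75 and 3.15 ± 0.70 (SD, n = 3 arrays) close to that of PR1. On all 3 arrays both also passed with robust eBayes. With arrays scaled to one spread neither did (limma adjusted p = 0.0514 for both), nor did they without moderation. Without any 1 array or with a dye term neither passed (limma adjusted p = 0.0674 to 0.296 for both).

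Genes near PR1 and directly beside PR5 on the chromosome were read in the same way. LURP1, which is known as a late-induced gene of pathogen defence, has 7 genes between it and PR1. PRB1 is 1 of these 7 and had another order of arrays. LURP1 stood at 1.34, 3.24 and 1.84, a mean of 2.14 ± 0.98 (SD, n = 3 arrays; limma adjusted p = 0.0835), in the same order of arrays as PR1 and with less spread. The direct neighbours of PR5 are thaumatin-like genes too, and both lay on the other side of 0. AT1G75030 (TLP-3) stood at -0.80, -0.57 and -0.53, a mean of -0.63 ± 0.15 (SD, n = 3 arrays; limma adjusted p = 0.0696). AT1G75050 stood at -0.66, -0.08 and -0.25 (limma adjusted p = 0.298). The positive ratios of PR5 were thus not shared by its tandem neighbours.

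No gene of the wider protein families passed, and the chitinases had the highest family median. The counts that follow are limma calls over all genes, beside 0.625% of genes higher and 0.584% lower. Of 20 other genes of the PR-1 family, 0 passed, 13 had a mean above 0 and 7 below, and the median was 0.02. Their lowest means were AT5G66590 at -0.81 ± 0.31 (SD; adjusted p = 0.0797) and AT3G09590 at -0.44 ± 0.14 (SD; adjusted p = 0.107), and the highest was 0.25, so none of the 20 came near PR1. Of 12 other beta-glucanase genes, 0 passed and the median was -0.06. Among them AT4G16260 stood at -0.90, 0.06 and -1.74, which is the order of arrays seen for PR4, and AT1G66250 stood at 0.34 ± 0.37 (SD). Of 19 other thaumatin-like genes, 0 passed and the median was -0.04, with 6 above 0 (19.7% of all genes) and 7 below 0 (18.0% of all genes) on all 3 arrays. At an unadjusted p under 0.05, 2 were higher (10.6% of all genes) and 3 lower (9.48% of all genes). Their largest ratios were AT2G28790 at 0.70 ± 0.44 (SD) and AT1G75800 at -0.65 ± 0.13 (SD; adjusted p = 0.0649).

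Of 13 measured chitinase genes other than PR3, 0 passed in limma, 7 had an unadjusted p under 0.05 on the higher side (10.6% of all genes) and 2 on the lower side (9.48% of all genes). The median was 0.32. CHIA, an acidic class III chitinase gene, stood at 0.59, 2.45 and 2.01, a mean of 1.68 ± 0.97 (SD, n = 3 arrays; adjusted p = 0.114). CHI (AT2G43570) stood at 0.86, 2.36 and 1.29, a mean of 1.503 ± 0.77 (SD, n = 3 arrays; adjusted p = 0.0979). Both were higher in the mutant on every array and lowest on array 1, as PR1 was, while the basic chitinase gene PR3 was near 0. AT2G43590 of the same list was on the other side, with a mean of -1.15 ± 0.34 (SD; adjusted p = 0.0603). So was CTL2, at -0.64, -0.69 and -0.60, with the lowest adjusted p of the list (0.0546 in limma). On all 3 arrays, 7 of the 13 were above 0 (19.7% of all genes) and 4 were below 0 (18.0% of all genes).

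The other PR classes gave 0 calls among 9 genes in limma, with a median of 0.14. The plant defensin gene PDF1.2, the standard marker of joint jasmonate and ethylene signalling, stood at -2.55, -1.72 and -3.82, a mean of -2.70 ± 1.06 (SD, n = 3 arrays; adjusted p = 0.0696). It was lowest on array 3 and least low on array 2, the order of arrays seen for PR4, but unlike PR4 it was below 0 on all 3. The lipid transfer protein gene LP1 stood at 0.74 ± 0.32 (SD; adjusted p = 0.0930). Its relative LTP3 stood at 1.07, -1.10 and 1.66, a reversal on array 2 in the opposite sense to PR4.

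**Figure D4:**
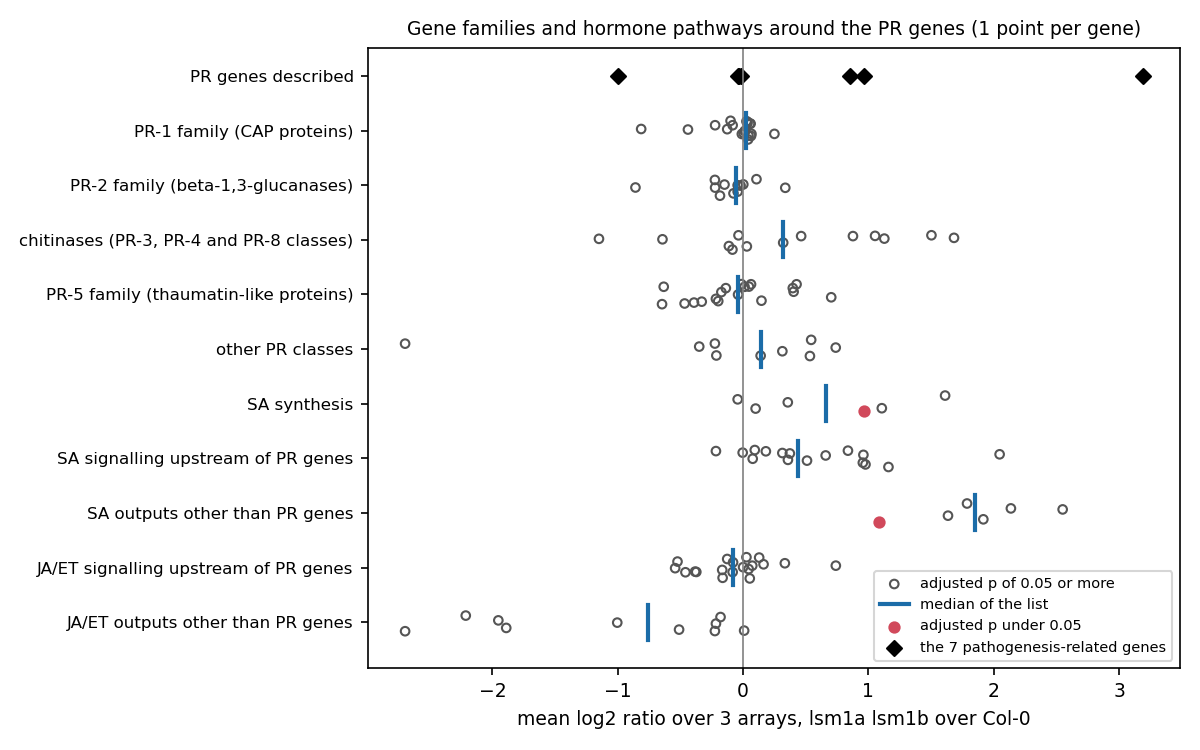
Mean log2 ratio over 3 arrays (lsm1a lsm1b over Col-0, horizontal axis), 1 point per gene, for the 7 genes (diamonds) and for related families and pathway lists, with blue bars for list medians and filled red points for genes past the threshold. SA stands for salicylic acid and JA/ET for jasmonate and ethylene. Medians run from -0.76 for jasmonate and ethylene outputs to 1.85 for salicylic acid outputs.

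Upstream of PR1, PR2 and PR5, genes of salicylic acid synthesis and response were mostly above 0. Of 6 measured synthesis genes, ICS1 (EDS16 in RefSeq), the main synthesis enzyme under stress, passed, at 0.80, 1.12 and 0.99 (mean 0.97 ± 0.16, SD, n = 3 arrays; limma adjusted p = 0.0465), and the list median was 0.66. Without any 1 array or with a dye term this call was lost (limma adjusted p = 0.0703 to 0.296), and the lowest mean was then 0.90. On all 3 arrays the ICS1 call was also lost with scaled arrays or robust eBayes (limma adjusted p = 0.0620 and 0.0502). It was lost without moderation too, where the adjusted p was higher than in any of these fits. ICS1 was more even over the arrays than PR1. Of 16 signalling genes, 0 passed in limma, 12 were above 0 on all 3 arrays (19.7% of all genes), 11 had an unadjusted p under 0.05 on the higher side (10.6% of all genes), and the median was 0.44. NIMIN-2, which encodes a protein that binds NPR1, stood at 1.27, 3.23 and 1.64 (adjusted p = 0.0936), and the transcription factor gene WRKY70 at 0.59, 1.98 and 0.91 (adjusted p = 0.134). Of 6 outputs other than PR genes, DMR6, which encodes a salicylic acid hydroxylase, passed, at 0.84, 1.30 and 1.12 (mean 1.09 ± 0.23, SD, n = 3 arrays; limma adjusted p = 0.0470). This call too was lost without any 1 array or with a dye term (limma adjusted p = 0.0704 to 0.296). With scaled arrays or robust eBayes DMR6 did not pass either (limma adjusted p = 0.0655 and 0.0515), nor did it without moderation. The 6 outputs were LURP1, GRX480, DMR6, PNP-A, FMO1 and ALD1, and their dependence on salicylic acid was not tested. All 6 had a mean above 0, with a median of 1.85, beside a median of 0.01 over all genes. All 6 were highest on array 2 (42.1% of all genes). Their medians on arrays 1, 2 and 3 were 1.13, 2.93 and 1.77, the same order of arrays as PR1 and PR5. The share of all genes with a given order of arrays was not computed, here or where an order is named elsewhere. PR2, at -0.04, lay below each of the 6, whose lowest mean was that of DMR6.

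Upstream of PR3 and PR4, 0 of 19 measured jasmonate and ethylene signalling genes passed in limma, with a median of -0.08. JAZ1, a jasmonate repressor gene, stood at 0.74 ± 0.37 (SD; adjusted p = 0.110) and EBF1, which encodes an F-box protein that removes the ethylene factor EIN3, at -0.54 ± 0.65 (SD; adjusted p = 0.361), with EBF1 probes that disagreed by more than 1. Of these 19 genes, 8 were below 0 on arrays 1 and 3 and above 0 on array 2, against 16.5% of all genes. PR2, PR3 and PR4 had this pattern too, so it was not particular to the jasmonate and ethylene lists. It was seen in 6 of the 12 other beta-glucanase genes and 5 of the 7 root markers. Among the 16 salicylic acid signalling genes 3 had it, and among the 20 other PR-1 family genes 0 did. Of 10 jasmonate and ethylene outputs other than PR genes, 0 passed in limma, 7 were below 0 on all 3 arrays (18.0% of all genes), and the median was -0.76. VSP1, AOS and OPR3 were not below 0 on all 3. VSP1 stood at 0.03, -0.73 and 0.04, with probe means from -0.87 to 0.48. AOS stood at 0.24, -0.80 and 0.02, and OPR3 had a mean of 0.01. VSP1 and AOS were lowest on array 2, where the defensin genes of the list were least low. The list median thus pools genes that differed over the arrays. The 4 defensin genes of this list, PDF1.2, PDF1.2b, PDF1.2c and PDF1.3, had means between -2.70 and -1.89, and their probes may share signal because the genes are near-identical. PR3 and PRB1 did not share these low ratios, and PR4 did so on arrays 1 and 3.

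Marker genes of other tissues were examined for the same arrays. None of 7 root, 5 flower, 4 seed and 3 senescing-leaf markers passed in limma. The root markers had a median of -0.02, with summed ratios of -0.01, 1.01 and 0.51 on arrays 1, 2 and 3, with WOX5 at 0.65 ± 0.09 (SD; adjusted p = 0.0603) and PHO1 at 0.15 ± 0.30 (SD). The flower markers had a median of 0.19 and sums of -0.39, 2.41 and 0.09, with AP1 at 0.30 ± 0.27 (SD) and AP3 at 0.20 ± 0.23 (SD). The seed markers had a median of -0.07 and sums of -0.39, -0.25 and -0.25, with CRU3 at -0.13 ± 0.15 (SD) and OLEO1 at -0.08 ± 0.11 (SD). The senescing-leaf markers had a median of 1.17 and sums of 1.53, 4.14 and 2.39, in the same order of arrays as PR1, with SAG13 at 1.42, 1.44 and 0.66 and SEN1 at 0.22, 1.97 and 1.73, while SAG12 stood at 0.21 ± 0.46 (SD). The part of senescing tissue in the PR1 and PR5 ratios was not tested.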

How the data were processed

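Per the labels, Trizol-extracted, column-purified total RNA was amplified and coupled to dyes. The authors deposited 1 normalized ratio per probe and array, to 2 decimals, taken as log2 because the values ran from -6.76 to 5.87 and limma, which the submitters' processing notes name, uses that scale. Background correction, normalization, log base and sign: not given in the sources used here. Intensities were not used, so probes near background are included unrecognised. Precision is limited by the number of arrays.

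Of 43656 rows, 55 were manufacturer controls and were dropped. Of the 43601 other probes, the platform annotation, which can be old, named 34342 with 1 symbol, 0 with several and 9259 with none. Symbols were brought up to date with RefSeq (TAIR10.1), by accession for 32245 probes and by symbol for 2015; 37 with conflicting matches and 45 with none stayed unnamed. Probes of a gene were averaged per array. Coordinates are left out because the array's build is unknown. limma 3.58.1 (R 4.3.3) tested each mean ratio against 0 by lmFit and eBayes with an intercept only, two-sided, adjusted by Benjamini-Hochberg over 24650 genes, at a threshold of 0.05. The fit was tested on simulated data. Intervals are moderated 95% intervals of the mean.

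The 7 genes and all lists were chosen with earlier results of these data known. Named were all 7 genes, of each list the members past the threshold or otherwise the 2 with the largest absolute mean, 4 relatives or neighbours (LURP1, BG1, AT1G75030, AT1G75050), and the 5 genes nearest to PR1. AT2G43590, CTL2, LTP3, SAG12, PDF1.2b, PDF1.3, VSP1, AOS, OPR3, GRX480, FMO1, ALD1 and AT4G03050 were named after their values were seen. PDF1.2 and THI2.1 are in 2 lists. LURP1 and PNP-A are also among the salicylic acid outputs, and BG1, AT1G75030 and AT1G75050 are also in the family lists. Alternatives left out each array, added a dye term, weighted dye orientations equally, changed the probe summary, centring, scale or variance model, dropped moderation, or tested single probes.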

Additional observations from a re-analysis of the deposited data

How the results depend on the processing

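None of the 7 genes passed the threshold under any alternative run, and the lowest adjusted p of each in limma were 0.0703 for PR1, 0.0709 for PR5, 0.0760 for PR4, 0.187 for PR3, 0.189 for PRB1, 0.262 for PR2 and 0.544 for BGL3. PR1, PRB1 and PR4 kept their sign in all alternatives. Leaving out 1 array at a time gave PR1 1.93 to 3.91, PRB1 0.62 to 1.27, PR4 -1.92 to -0.325, PR5 0.645 to 1.21, PR2 -0.165 to 0.035, BGL3 -0.23 to 0.255 and PR3 -0.213 to 0.0717, and the last 3 changed sign among these. PR2 stood at 0.035 without array 1 and at 0.02 without array 3, BGL3 at 0.255 without array 1, and PR3 at 0.0517 without array 1 and 0.0717 without array 3. The dye term and equal weight to both orientations give the same mean by construction, so they count as 1 alternative for the means. In it PR2 stood at 0.0275, BGL3 at 0.085, PR3 at 0.0617, PR4 at -0.54, PR1 at 3.82, PR5 at 1.12 and PRB1 at 0.943. With arrays scaled to one spread BGL3 stood at 0.0119. Single probes turned the sign of BGL3 (0.117), PR3 (0.0633) and PR5 (-0.0433), the last 2 being those annotated with another sequence record. Of all genes, 298 passed in the fit reported (4944 at an unadjusted p under 0.05 in limma). Without array 1, 2 or 3, 0 passed (2804, 7327 and 2542 at an unadjusted p under 0.05 in limma), and none passed with the dye term. With scaled arrays 76 passed, with robust eBayes 181 and without moderation 1. The fits without 1 array or with the dye term had fewer arrays or degrees of freedom. The cause was not tested for any of these drops. The difference between salicylic acid and jasmonate and ethylene markers was 1.26 to 1.75 without 1 array, and 0.52 without PR1. It was 1.08 with BGL3 among the salicylic acid markers and 1.57 with the median of probes. Each array pairs both genotypes, so the test of the ratios against 0 already used this pairing, with 1 group of ratios.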
